A study of Homo sapiens with 6 samples.

Results

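Chromatin loops at the D-type cyclin genes CCND1, CCND2 and CCND3, at their kinase gene CDK6 and at the cell cycle inhibitor genes CDKN1A and CDKN2A were taken from a Micro-C loop list of HAP1 cells. HAP1 is a human line with a near-haploid genome, derived from the leukaemia line KBM-7. Micro-C maps which stretches of DNA touch each other after the chromatin has been cut between nucleosomes. The cells were sorted as diploid HAP1 cells by DNA stain, and were crosslinked with 1% formaldehyde for 10 min and 3 mM DSG for 45 min. All 6 samples belong to this 1 group of unedited cells, and the loop list does not tell them apart. A loop counted as a member when an anchor overlapped the gene span (hg19) extended by 20 kb on each side, a choice that uses no contact values. In all, 45 of the 46849 loops in the list met it: 2 at CCND1, 8 at CCND2, 14 at CCND3, 13 at CDK6, 3 at CDKN1A and 5 at CDKN2A. None belonged to more than 1 of the genes.

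The D-type cyclins bind CDK4 or CDK6, and the active kinase phosphorylates the retinoblastoma protein, which lets cells pass from G1 into S phase. CDKN1A encodes p21, an inhibitor of cyclin-dependent kinases that p53 induces. CDKN2A encodes a pair of tumour suppressors from separate first exons, p16INK4A, which blocks CDK4 and CDK6, and ARF, which restrains MDM2. In blood cancers these loci are known for translocations that place CCND1, CCND2, CCND3 or CDK6 under foreign enhancers and for deletions of CDKN2A. A loop list holds no expression values, so the activity of the genes and the identity of the cells could not be checked against marker genes.

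For each loop the list gives how many contacts joined its anchors and how many were expected from the donut of map pixels around that point. The ratio of observed to expected contacts is used here as loop strength. Observed contacts ran from 12 to 127 over the 45 loops, with a median of 35 and quartiles of 21 and 66, against a median of 31 and quartiles of 21 and 48 in the whole list. Their median ratio was 4.35 (quartiles 3.26 and 6.40), against 3.55 in the whole list (quartiles 2.59 and 5.41). They were also longer, with a median span of 245 kb (quartiles 95 and 460 kb), against 160 kb (quartiles 70 and 360 kb). Since strength rises with span, each loop was also set beside the median of all loops of the same anchor width and like span. On that scale 27 of the 45 (60.0%) lay above the median of like loops, against 50.0% of the whole list, and the median of the 45 was 1.07 times its like loops. Deposited q-values were at or below 0.1 against all 4 surroundings for 35 of the 45 loops (77.8%), where the whole list had 72.0%. A single pixel carried 5 of the 45 loops (11.1%), against 8.94% of the whole list. All 3 shares lie near those of the whole list.

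Because the list merges all samples, no value has a replicate error and no test between genes was made. Intervals given for counts and ratios are exact Poisson 95% intervals and cover counting error only. For scale, the weakest count among the 45 loops, 12 contacts, has an interval of 6.20 to 21.0, and the highest, 127, one of 106 to 151.

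**Figure D1:**
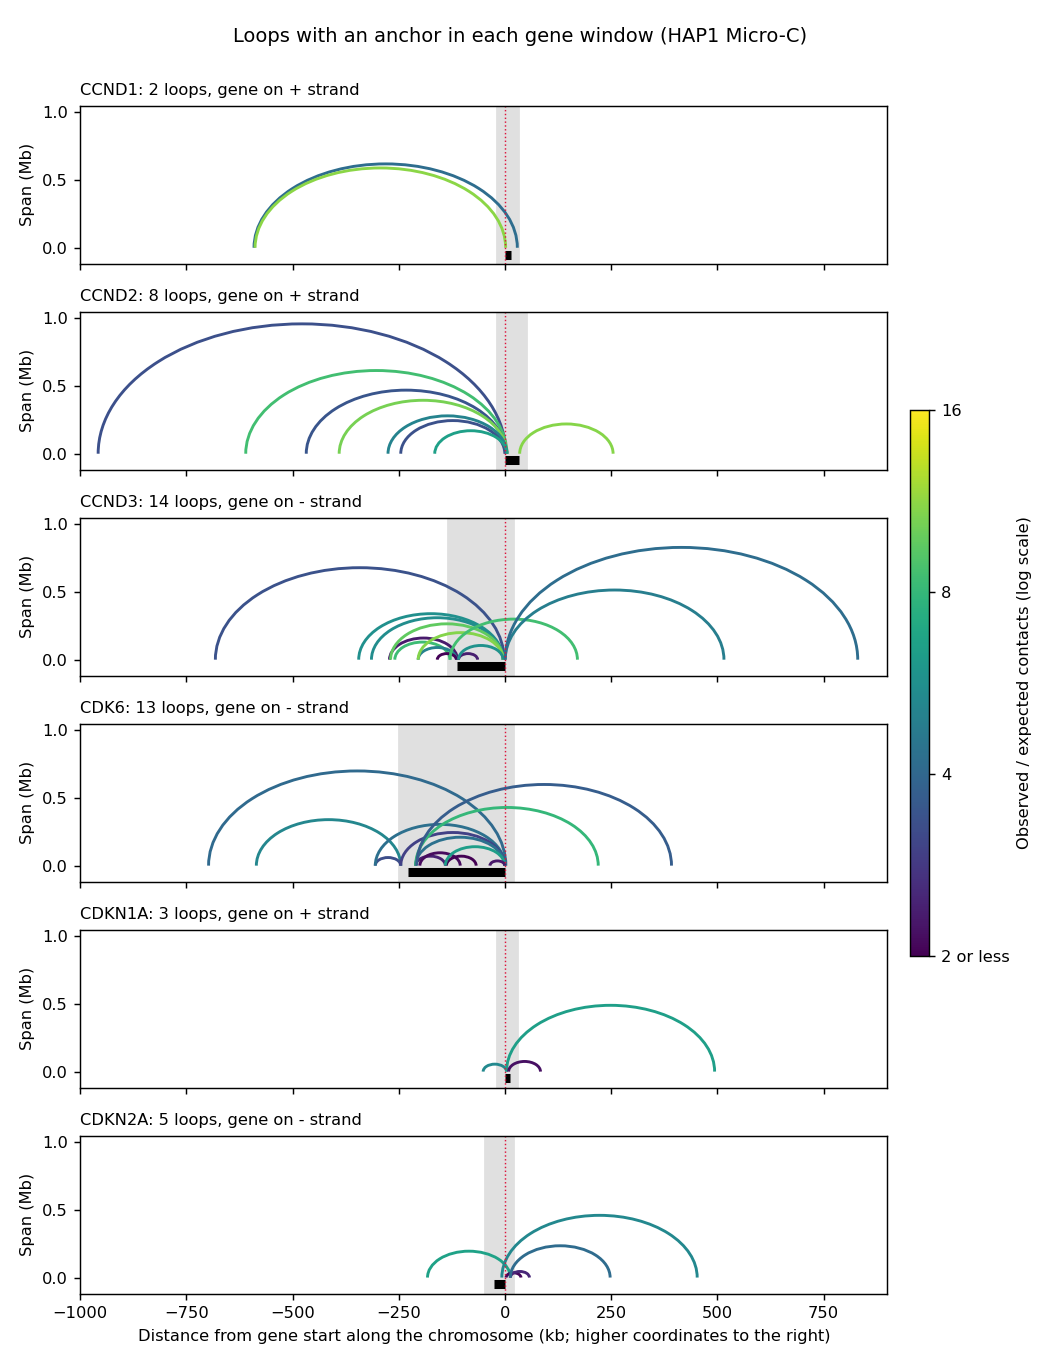
Every loop with an anchor in the 6 gene windows, drawn as an arc between its anchor midpoints by distance from the gene start (kb), with the span as height (Mb) and the colour giving observed over expected contacts (log scale). Grey marks the window and the black bar the gene span. CCND2 has 7 arcs to lower coordinates from its start, while CCND1 has a pair of nearly equal arcs, CDKN1A has 3 arcs and CDKN2A has 5.

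The genes differed in how many loops they had, where these were attached and how far they reached. CCND3 had 14 loops in a window of 154 kb and CDK6 had 13 in 269 kb. CCND2 had 8 in 72 kb, CDKN2A 5 in 67 kb, CDKN1A 3 in 51 kb and CCND1 2 in 53 kb. Per 100 kb of window that was 11.1 for CCND2, 9.09 for CCND3, 7.46 for CDKN2A, 5.88 for CDKN1A, 4.83 for CDK6 and 3.77 for CCND1. CDK6 had the next to highest count but the next to lowest density, as its window is the longest. All windows of the same width, moved along the same chromosome in steps of 5 kb, served as a description of the background. At least 14 loops were found in 3.54% of such windows for CCND3, and at least 8 in 5.41% for CCND2. For CDK6, 12.5% of windows reached its 13 loops, and for CDKN2A 13.9% reached its 5. The counts of CDKN1A and CCND1 were common, with 31.4% and 41.3% of windows reaching 3 and 2 loops. These windows cover stretches without genes as well, so a gene window with many loops need not be unusual among genes. Median spans were 605 kb at CCND1, 337.5 kb at CCND2, 232.5 kb at CCND3, 210 kb at CDK6, 195 kb at CDKN2A and 75 kb at CDKN1A. The highest and lowest of these rest on only 2 and 3 loops. The loops of CCND1, at 590 and 620 kb, were longer than any at CDKN1A (up to 490 kb) or CDKN2A (up to 460 kb).

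**Figure D2:**
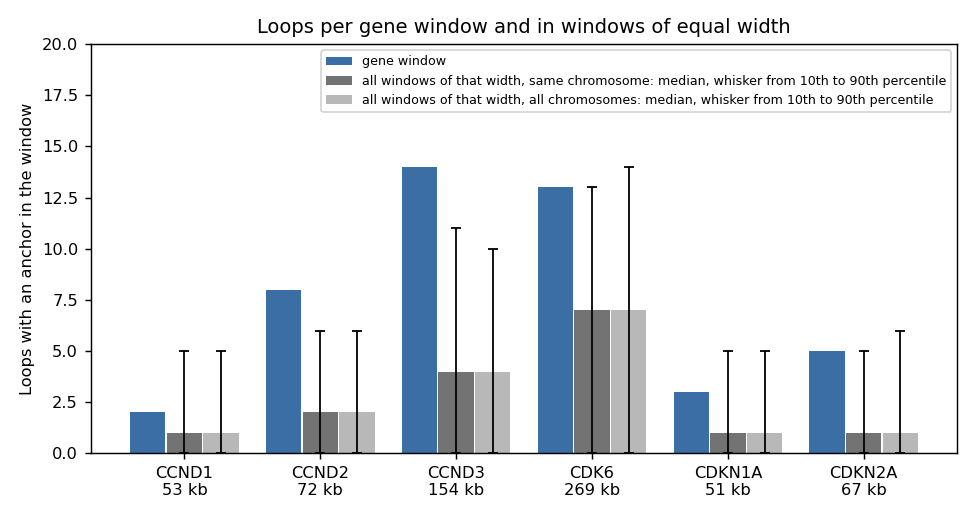
Number of loops with an anchor in each gene window (blue) beside all windows of equal width on the same chromosome and on all chromosomes (grey bars, medians; whiskers, 10th to 90th percentile). CCND2 (8 loops) and CCND3 (14) stand above the 90th percentile of both backgrounds, whereas CCND1 (2) and CDKN1A (3) lie within them.

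Gene starts, as defined below, were the most frequent of the places counted. The 5 kb limit behind this was set after the loops had been seen, and no share over all anchors stands beside it. In narrow windows, such as the 51 kb of CDKN1A, the start zone also takes up a larger share. An anchor was placed at the gene start when it lay within 5 kb of that end of the span, and likewise for the far end. Only 1 start per gene was used, the end of the span that the strand gives, and nearness to it was checked first. RefSeq lists 3 starts for CCND3, 2 for CDK6 and 2 for CDKN2A. A loop at another start could therefore be counted under another place. Of the 45 loops, 25 touched a gene start, 7 a far end, 10 the gene body in between, 3 the upstream flank and 6 the downstream flank. These numbers add up to more than 45 because 9 loops had both anchors inside their window. The start carried 7 of 8 loops at CCND2, 8 of 14 at CCND3, 6 of 13 at CDK6, 2 of 3 at CDKN1A, 1 of 2 at CCND1 and 1 of 5 at CDKN2A. With the start taken at the end of the span, only CDKN2A had a start anchor with fewer loops than another anchor of its window. Its second RefSeq start was not considered in this count. The gene spans are known to 1 kb and the anchors are 5 or 10 kb wide, so a start and its nearest neighbourhood cannot be separated. How often anchors fall on the starts of other genes was not analysed here, as no hg19 annotation was used.

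**Figure D3:**
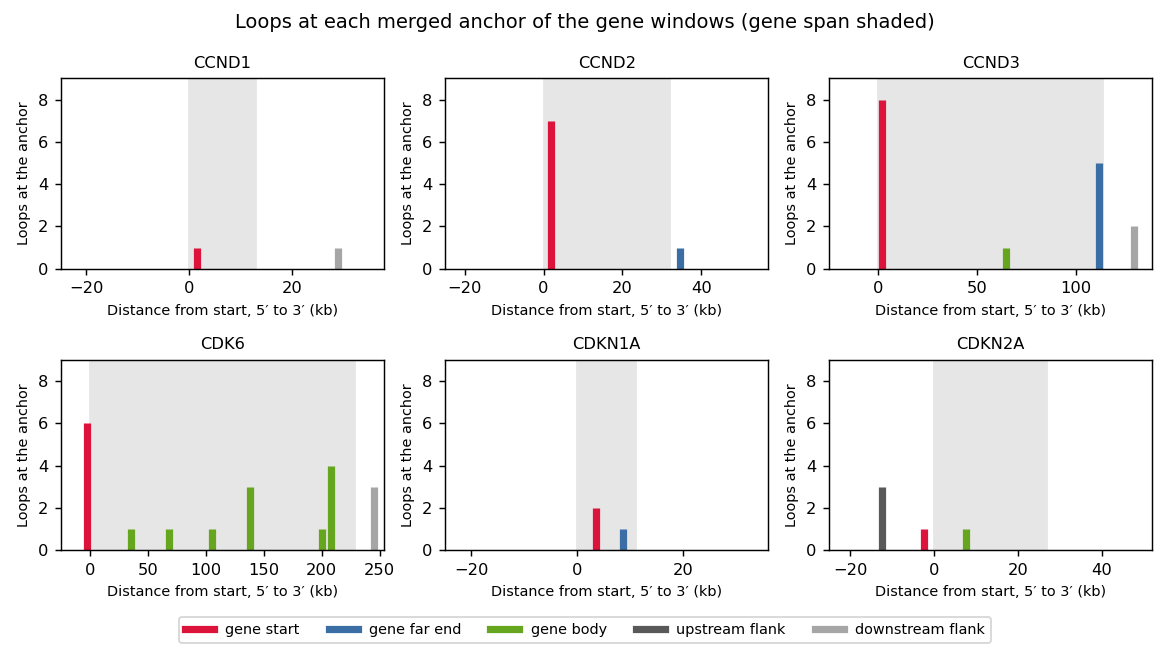
Loops held by each merged anchor in the 6 windows (bar height), by distance from the gene start along the gene's own direction (kb), with the gene span shaded and the colour giving the place. The start anchors of CCND3 (8 loops), CCND2 (7) and CDK6 (6) are the tallest bars.

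Promoters of CCND3, CDK6, CDKN1A and CDKN2A are shown next, from RefSeq (GRCh38.p14), because loops attached at or near the starts of these genes. Entries matched 4 of the 6 genes, and none matched CCND1 or CCND2. Each runs over the 250 bases before a transcript start, in the direction of the gene, and capitals mark GC boxes, the letters GGGCGG on either strand, where overlapping matches were both counted. The positions belong to GRCh38 and cannot be set beside the hg19 positions of the loops, so whether an anchor covers a given window was not tested. For CCND3 the promoters of its uppermost and next starts are given, because a loop joined both ends of this gene. The table lists 3 starts for CCND3, 2 for CDK6, 1 for CDKN1A and 2 for CDKN2A.
CCND3 uppermost start (chr6:42048689-42048938, minus strand): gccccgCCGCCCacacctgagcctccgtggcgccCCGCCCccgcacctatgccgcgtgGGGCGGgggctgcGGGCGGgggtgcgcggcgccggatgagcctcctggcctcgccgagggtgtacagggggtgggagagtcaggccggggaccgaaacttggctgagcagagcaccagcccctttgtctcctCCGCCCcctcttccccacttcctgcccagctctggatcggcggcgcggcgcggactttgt
CCND3 next start (chr6:41941809-41942058, minus strand): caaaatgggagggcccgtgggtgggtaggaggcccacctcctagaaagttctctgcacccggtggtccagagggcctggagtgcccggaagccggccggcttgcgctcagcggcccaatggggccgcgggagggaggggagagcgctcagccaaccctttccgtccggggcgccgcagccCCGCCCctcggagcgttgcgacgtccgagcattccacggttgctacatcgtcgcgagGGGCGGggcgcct
CDK6 uppermost start (chr7:92836574-92836823, minus strand): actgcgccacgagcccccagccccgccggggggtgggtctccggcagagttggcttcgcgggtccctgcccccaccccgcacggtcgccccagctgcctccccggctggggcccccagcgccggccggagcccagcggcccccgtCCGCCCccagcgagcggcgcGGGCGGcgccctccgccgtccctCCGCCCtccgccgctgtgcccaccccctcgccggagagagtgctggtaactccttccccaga
CDKN1A (chr6:36678464-36678713, plus strand): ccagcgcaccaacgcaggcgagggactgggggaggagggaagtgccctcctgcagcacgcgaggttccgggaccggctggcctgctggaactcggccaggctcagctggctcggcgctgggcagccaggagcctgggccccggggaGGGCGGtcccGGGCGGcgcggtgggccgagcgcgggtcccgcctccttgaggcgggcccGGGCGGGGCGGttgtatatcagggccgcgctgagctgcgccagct
CDKN2A uppermost start (chr9:21995325-21995574, minus strand): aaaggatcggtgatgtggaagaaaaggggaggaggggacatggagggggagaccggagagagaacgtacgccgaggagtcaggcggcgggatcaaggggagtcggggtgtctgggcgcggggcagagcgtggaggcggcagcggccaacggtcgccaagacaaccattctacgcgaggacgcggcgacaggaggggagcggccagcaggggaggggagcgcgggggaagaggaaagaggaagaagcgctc

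These 5 windows were rich in CG pairs. The CCND3 windows held 26 CG pairs each, CDK6 30, CDKN1A 27 and CDKN2A 24, where the median of 35116 RefSeq promoter windows was 11. GC boxes, which bind SP1-type factors, numbered 5 and 2 in the CCND3 windows, 3 in CDK6, 4 in CDKN1A and 0 in CDKN2A, and 42.6% of all windows held at least 1. The starts that are not printed differed in part. The third CCND3 start had 3 CG pairs and 0 GC boxes, the second CDK6 start had 23 and 0, and the second CDKN2A start had 20 and 1. The letters CCCTC, after which the loop anchor protein CTCF is named, occurred on either strand 2 and 6 times in the CCND3 windows and 4 times each in CDK6, CDKN1A and CDKN2A, and 66.6% of all windows held them. The third CCND3 start held them 2 times, the second CDK6 start 4 times and the second CDKN2A start 6 times. The letters TATAAA, the TATA box, were found on neither strand of the 5 windows, with 10.7% of all windows holding them. Such matches describe the letters of 250 bases only, while an anchor covers at least 5 kb.

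CCND1, the cyclin D1 gene, had the fewest loops, and both ran the same way. Its start anchor (chr11:69455001-69460000) held a single loop, 590 kb long, to chr11:68865001-68870000, with 61 observed and 5.45 expected contacts. The ratio of 11.2 (interval 8.55 to 14.4) was the highest of the 45, with an interval that overlaps those of the next ones, and 1.82 times that of like loops. The loop merged 9 pixels. A second loop of 620 kb with 10 kb anchors ran from the downstream flank (chr11:69480001-69490000) to chr11:68860001-68870000. It had 63 observed and 15.1 expected contacts, a ratio of 4.17 (3.21 to 5.34), and rested on 1 pixel. Both therefore ended at the same distant place, which held no other loop of the list. No anchor of any loop lay in the 566 kb between that place and the lower edge of the CCND1 window. Within 500 kb of the gene the list held only 6 loops, or 5.92 per Mb, against 21.3 to 40.4 per Mb around the other 5 genes. In RefSeq order the protein-coding genes TPCN2, SMIM38 and MYEOV precede CCND1, and LTO1 and FGF19 are among those that follow. Contact depth, the log2 of the expected count minus the median of like loops, was 0.72 and 0.89 for these loops, the highest median of the 6 genes (0.81). These depths describe the 2 called loops only, and expected contacts elsewhere at the locus were not measured.

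CCND2, the cyclin D2 gene, had a fan of loops from its start towards lower coordinates. All 7 loops of the merged start anchor (chr12:4380001-4390000) ran that way, with spans of 170, 245, 280, 395, 470, 615 and 960 kb, and none ran across the gene. Their distant ends were 7 separate places, so the start anchor was the only end they shared. The loop of 395 kb (chr12:3990001-3995000) had the highest ratio of the fan, with 36 observed and 3.46 expected contacts, a ratio of 10.4 (7.29 to 14.4). That of 615 kb reached 8.54 (4.67 to 14.3) from 14 contacts, and that of 170 kb reached 6.47 (4.30 to 9.35) from 28. The intervals of these 3 loops overlap.

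The remaining loops of the fan had lower ratios, though their intervals overlap those of the loops of 170 and 615 kb, and that of the loop of 280 kb also overlaps that of 395 kb. The loop of 280 kb had 23 contacts and a ratio of 5.06 (3.21 to 7.60), and that of 245 kb had 20 contacts and 3.35 (2.05 to 5.18), which was 0.697 times its like loops. With 10 kb anchors, the loop of 470 kb had 31 contacts and a ratio of 3.46 (2.35 to 4.91). The longest, 960 kb, had 15 contacts and a ratio of 3.32 (1.86 to 5.48). The loops of 245 and 960 kb each had at least 1 q-value above 0.1, 0.686 and 0.496 at most, and are the least certain of the fan. An eighth loop left the far end of the gene (chr12:4415001-4420000) in the other direction, to chr12:4635001-4640000. It spanned 220 kb with 49 observed and 4.48 expected contacts, a ratio of 10.9 (8.09 to 14.5), 2.33 times its like loops. In RefSeq order PARP11 lies before CCND2, and TIGAR, FGF23 and FGF6 lie after it. Contact depth was lowest here, with a median of -0.30 over the 8 loops. Observed contacts of the fan ran from 14 to 36, against a median of 31 in the whole list.

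CCND3, the cyclin D3 gene, had the most loops, and both ends of the gene were attached. The start anchor (chr6:42010001-42020000) held 8 loops, which is reached by 0.806% of the 47497 merged anchors of the list. The far end (chr6:41900001-41910000) held 5, and a body anchor 1. A loop of 105 kb joined the far end to the start, with 88 observed and 15.4 expected contacts and a ratio of 5.71 (4.58 to 7.04), 1.80 times its like loops. Far end here means only the lower end of the gene span of 114 kb. The loop span may be read beside the RefSeq starts of this gene on the minus strand. Of these, the uppermost and the next are 106.9 kb apart in GRCh38. The far-end anchor may therefore also hold a start of CCND3, which was not tested against hg19 positions.

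Towards lower coordinates, the start of CCND3 had its loops of highest ratio. The loop of 200 kb to chr6:41810001-41815000 had 104 observed and 9.53 expected contacts, a ratio of 10.9 (8.92 to 13.2) and 2.41 times that of like loops, the highest such value of the 45. The loop of 265 kb to chr6:41745001-41750000 had 97 contacts and a ratio of 9.63 (7.81 to 11.7). Further out, loops of 310, 340 and 680 kb had 36, 22 and 21 contacts and ratios of 5.51 (3.86 to 7.63), 5.62 (3.52 to 8.51) and 3.38 (2.09 to 5.17). The loops of 200 and 265 kb thus had ratios whose intervals lay above those of the loops of 310 and 680 kb. That of 680 kb had 10 kb anchors, so its ratio is not on the same scale as the others. Set against like loops, those of 200 and 265 kb were at 2.41 and 1.93 times. The loops of 310 and 680 kb were at 1.07 and 1.10 times.

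To the other side the start had only long loops, of 515 kb (21 contacts, ratio 4.81, 2.98 to 7.35) and 830 kb (12 contacts, ratio 4.17, 2.15 to 7.28). Both were below their like loops, at 0.844 and 0.598 times, and their ends each held 7 loops of the list. The loop of 830 kb had a largest q-value of 0.523 and was the only CCND3 loop with any above 0.1. A loop of 300 kb bridged the whole gene from the downstream flank (chr6:41885001-41890000) to chr6:42185001-42190000, with 28 contacts and a ratio of 8.53 (5.67 to 12.3). The other 5 loops of CCND3 lay at its far end and downstream flank, with spans of 45 to 160 kb, 39 to 81 contacts and ratios of 2.02 to 8.34. The far-end anchor reached chr6:41740001-41750000 by a loop of 160 kb, and the start reached the same place by that of 265 kb. Together with the loop across the gene these made a closed triangle, 1 of 4 counted at CCND3. In RefSeq order MED20 and BYSL lie just below CCND3 and TAF8 just above.

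CDK6, the catalytic partner of the D-type cyclins, had 6 of its 13 loops with both anchors on the gene span. One more joined the start to the downstream flank, so 7 had both anchors within the window of 269 kb, whereas CCND3 had 2 such loops and the other 4 genes had 0. The start anchor (chr7:92460001-92470000) held 6 loops and all ran to lower coordinates, that is, over the gene body. The one with the highest ratio spanned 140 kb to chr7:92320001-92325000, with 88 observed and 13.9 expected contacts, a ratio of 6.35 (5.10 to 7.83), and it merged 16 pixels. A shorter one of 35 kb had 69 contacts but a ratio of only 2.28 (1.78 to 2.89), close to like loops (0.967 times). The loop of 210 kb to chr7:92250001-92255000 had 47 contacts and a ratio of 4.35 (3.20 to 5.79). Body anchors at 140 and 210 kb from the start were also joined to each other by a loop of 70 kb with 23 contacts and a ratio of 2.43 (1.54 to 3.64), which closed a triangle within the gene. One q-value of that short loop was as high as 0.228.

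The other loops of the CDK6 start reached the downstream flank and beyond. They spanned 245 kb (35 contacts, ratio 3.00, 2.09 to 4.17), 305 kb (21 contacts, 4.27, 2.64 to 6.52) and 700 kb (23 contacts, 4.06, 2.57 to 6.08). That of 700 kb had 10 kb anchors and was 1.29 times its like loops. The loop of 245 kb was the weakest of the start against its like loops, at 0.623 times, and its largest q-value was 0.353. Loops in the opposite direction left the body anchor near the 3′ end of the gene (chr7:92250001-92260000), and not the start. One of 430 kb to chr7:92680001-92685000 had 35 contacts and a ratio of 8.0 (5.58 to 11.1), the highest at CDK6. The other of 600 kb, with 10 kb anchors, had 19 contacts, a ratio of 3.65 (2.20 to 5.70) and at least 1 q-value above 0.1. It was 1.24 times its like loops. The highest count, 95 contacts, belonged to a body loop of 70 kb with 10 kb anchors and a ratio of 1.90 (1.54 to 2.32), the lowest of the 45, and a largest q-value of 0.361. From the downstream flank a loop of 340 kb had 17 contacts and a ratio of 5.25 (3.06 to 8.40). The remaining loops of 60 and 95 kb had 61 and 16 contacts and ratios of 3.26 (2.50 to 4.19) and 2.12 (1.21 to 3.45), and the largest q-value of the loop of 95 kb was 0.417. In RefSeq order FAM133B lies below CDK6 and SAMD9 above.

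CDK6 also had the lowest median ratio of the 6 genes, 3.65, against 7.68 at CCND1, 5.77 at CCND2, 5.32 at CDKN1A, 5.26 at CCND3 and 4.13 at CDKN2A. This lowest place depended on the setting. CDK6 had the higher median of the pair with the lower-left expectation (3.57 against 2.98 at CDKN2A), with the largest of the 4 expectations (2.87 against 2.26), with every q-value at or below 0.1 (4.31 against 3.32) and with windows extended by 50 kb (3.65 against 3.41). Ranges of the loops overlapped for each pair of genes. Set against loops of like span, the medians were 1.61 at CCND1, 1.31 at CCND2, 1.11 at CDKN1A, 1.09 at CCND3, 0.967 at CDK6 and 0.919 at CDKN2A, so here too CDKN2A lay below CDK6. Fewer CDK6 loops passed the q-value limit too, 8 of 13, against 13 of 14 at CCND3, and 72.0% in the whole list.

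**Figure D4:**
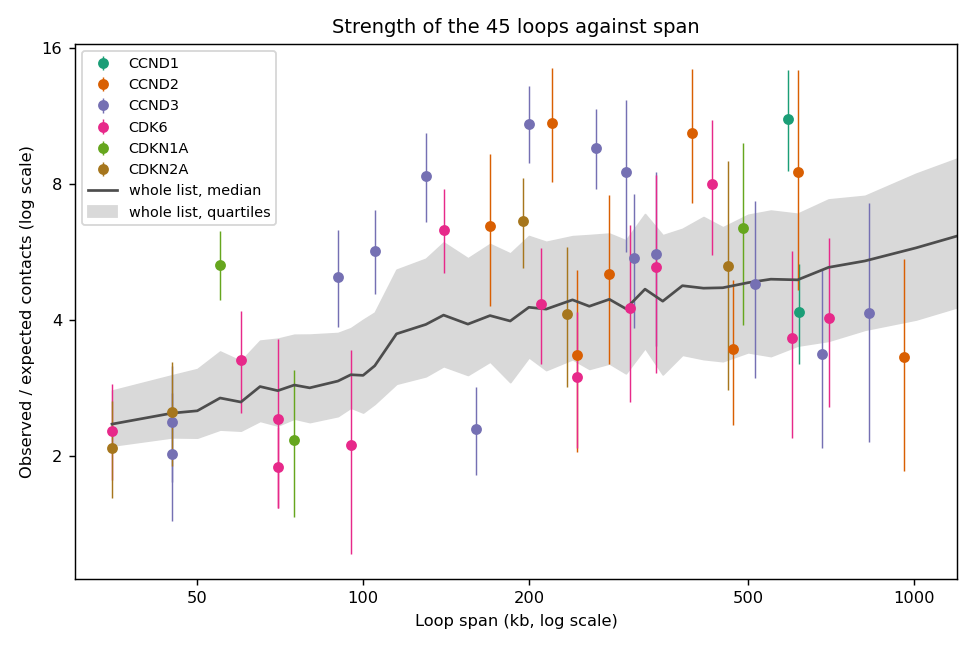
Observed over expected contacts of the 45 loops (points, coloured by gene, with exact Poisson 95% intervals) against span (kb), both on log scales, with the median and quartiles of the whole list in grey. The grey curve and band pool all anchor widths, unlike the like loops of the text. The CCND1 start loop (11.2), the CCND2 loop of 220 kb (10.9) and the CCND3 loop of 200 kb (10.9) lie above the upper quartile of the list, and most CDK6 points lie within the quartiles.

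CDKN1A, the p21 gene, had 3 loops in its 51 kb window, among them the highest count of the 45. Its start anchor (chr6:36645001-36650000) was joined to chr6:36590001-36595000, 55 kb towards lower coordinates, by 127 observed against 23.9 expected contacts. The ratio was 5.32 (4.43 to 6.33), 1.97 times that of like loops, and the loop merged 24 pixels, the most of any of the 45. Of the whole list, 2.17% of loops had as many contacts. A loop of 490 kb to chr6:37135001-37140000 left the start in the other direction with 20 contacts and a ratio of 6.40 (3.91 to 9.89), on a single pixel. The third loop joined the far end (chr6:36650001-36655000) to chr6:36725001-36730000, 75 kb away, with 30 contacts and a ratio of 2.17 (1.47 to 3.10). Its largest q-value was 0.356, so this loop is the least certain of the 3.

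The place 55 kb below CDKN1A also anchored loops that passed over the gene. Of the 4 loops that enclosed the whole gene span, 3 began there, and the fourth began in the adjoining bin. The first of them ended at chr6:36690001-36695000, spanned 100 kb and had 94 contacts on a single pixel, with a ratio of 6.13 (4.95 to 7.50). Another ended at chr6:36725001-36730000, spanned 135 kb and had 99 contacts with a ratio of 8.27 (6.72 to 10.1). These 2 were 1.94 and 1.92 times as strong as like loops, much as the loop to the gene start. Those of 230 and 395 kb had 22 and 13 contacts and ratios of 4.09 (2.56 to 6.19) and 4.59 (2.44 to 7.85). The loop of 395 kb had at least 1 q-value above 0.1. In RefSeq order SRSF3 and STK38 lie below CDKN1A, and RAB44, CPNE5 and PPIL1 above.

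CDKN2A, the gene of p16INK4A and ARF, was enclosed by 7 loops, of which 1 also had an anchor in its window. The gene span itself touched 1 loop. With flanks of 20 kb the count of attached loops was 5, and with flanks of 50 kb it was 8. An anchor in the body (chr9:21985001-21990000) held a loop of 460 kb with 13 contacts and a ratio of 5.28 (2.81 to 9.02), with a largest q-value of 0.316. The start anchor (chr9:21995001-22000000) held a loop of 35 kb with 66 contacts and a ratio of 2.09 (1.62 to 2.66). The upstream flank (chr9:22005001-22010000) held the other 3, and CDKN2B, which encodes the related inhibitor p15INK4B, is the next gene on that side in RefSeq order. These spanned 45 kb (59 contacts, ratio 2.50, 1.91 to 3.23), 235 kb (33 contacts, 4.13, 2.85 to 5.80) and 195 kb (77 contacts, 6.63, 5.23 to 8.28). The last, with the highest ratio, ran over the gene to chr9:21810001-21815000.

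That distant place held 7 loops, all of which ran to higher coordinates and enclosed CDKN2A. Anchors with at least 7 loops made up 1.63% of the merged anchors of the list. Besides the one already given, these spanned 225, 305, 330, 430, 495 and 640 kb. The loop of 430 kb to chr9:22240001-22245000 had 128 observed and 7.45 expected contacts, a ratio of 17.2 (14.3 to 20.4). The longest, to chr9:22450001-22455000, had 45 observed and 2.07 expected contacts, a ratio of 21.7 (15.8 to 29.0). Those ratios were 3.01 and 3.54 times those of like loops, above any of the 45 loops with an anchor in a gene window. The other 4 had 24 to 59 contacts and ratios of 3.53 to 7.39. The upstream flank of CDKN2A, the place at chr9:21810001-21815000 and that at chr9:22240001-22245000 were joined pairwise, the 1 closed triangle counted at this gene. In RefSeq order MTAP lies below CDKN2A, and CDKN2B and then DMRTA1 above.

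Enclosing loops were counted for all 6 genes, since the membership rule does not use them. There were 7 at CDKN2A, 5 at CCND3, 4 at CDKN1A, 2 at CDK6, 1 at CCND1 and 1 at CCND2. With windows extended by 20 kb, the inhibitor genes had more loops passing over them than attached to them: 7 against 5 at CDKN2A, 1 loop being counted on both sides, and 4 against 3 at CDKN1A. With windows extended by 50 kb this turned round, as 8 loops were attached at CDKN2A and 6 at CDKN1A. At 20 kb the attached loops were more numerous at CCND2 (1 against 8), CCND3 (5 against 14), CDK6 (2 against 13) and CCND1 (1 against 2). The 1 loop enclosing CCND1 and 1 of those enclosing CCND3 were likewise counted on both sides. Enclosing loops were not counted over other spans of equal width, so these counts have no background. Window width differs between the genes, and a longer gene is harder to enclose and easier to touch, so these counts are a description of 6 loci. The single loop around CCND2 spanned 1970 kb with 45 observed and only 0.182 expected contacts on 1 pixel. Its ratio of 248 has little meaning at such a small expectation.

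**Figure D5:**
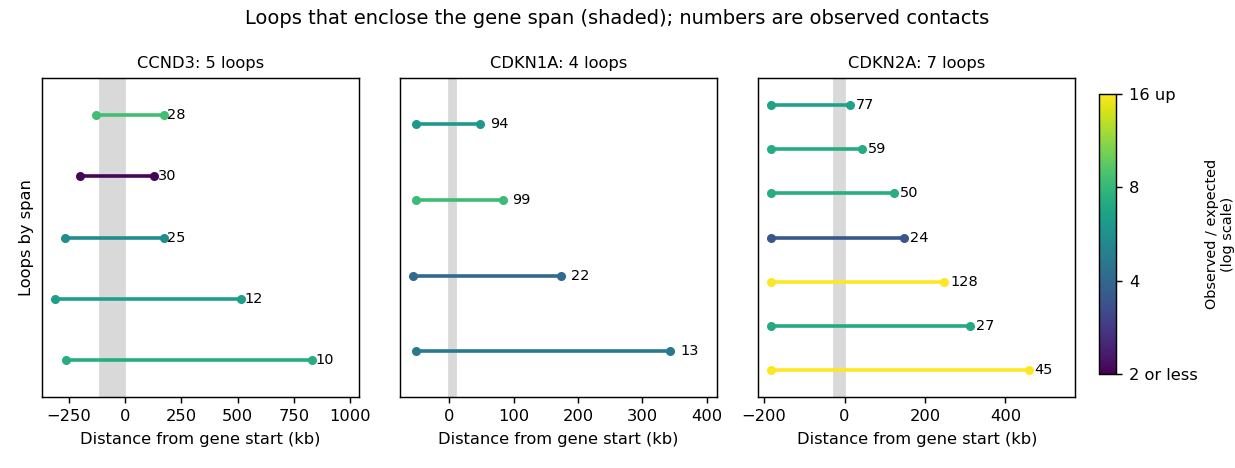
Loops that enclose the whole span of CCND3 (5), CDKN1A (4) and CDKN2A (7), drawn from anchor midpoint to anchor midpoint by distance from the gene start (kb; higher coordinates to the right) and ordered by span. Numbers are observed contacts and colours give observed over expected contacts (log scale). All 7 loops at CDKN2A begin at the same place, and those with 128 and 45 contacts have the highest ratios.

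Directions were counted for each gene. Of the loops that left their window, those to higher coordinates were 0 of 2 at CCND1, 1 of 8 at CCND2, 3 of 12 at CCND3, 2 of 6 at CDK6, 2 of 3 at CDKN1A and 4 of 5 at CDKN2A. The shares were 12.5% at CCND2 (exact binomial 95% interval 0.316 to 52.7%) and 80.0% at CDKN2A (28.4 to 99.5%). These intervals treat loops as independent draws, which loops of 1 list with shared anchors are not. At CCND2, 7 of the 8 loops shared the start anchor. The shares are therefore a description of few loops, and no difference between genes was tested. Relative to transcription, the CCND2 fan lay upstream of the gene, whereas the CDK6 start loops all ran downstream over the gene.

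Some anchors lay just beyond the 20 kb margin. At CDKN2A the nearest anchor below the window, chr9:21940001-21945000, missed it by 3 kb, and at CCND3 the nearest above, chr6:42040001-42045000, also missed it by 3 kb. The outermost anchors inside were chr9:21985001-21990000 at the lower side of CDKN2A and chr6:42015001-42020000 at the upper side of CCND3. For CCND1 the nearest anchor above lay 11 kb outside, and for CDKN1A and CDKN2A it lay 15 kb outside.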

How the data were processed

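Micro-C contacts were measured in 6 samples of HAP1 cells. The authors deposited 1 loop list for all of them, so replicate spread is unknown. Per the file header the list was written by juicer_tools 1.22.01, and the submitters' processing notes name BWA and hg19. The sources used here give no pooling, depth or caller settings. The deposited values are whole observed contact counts, the count the loop caller expected from each of 4 surroundings of the pixel, the q-value against each, the number of merged pixels and the cluster radius in bp.

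Tables were computed in Python 3.11.15 (pandas 2.3.3, numpy 2.4.6), intervals with scipy 1.17.1, and figures drawn with matplotlib 3.10.9. Gene spans (hg19, to 1 kb) were extended by 20 kb, and an overlap of 1 bp made a member. The strands of CCND1 and CCND2 are general knowledge, and the others came from RefSeq. Strength is observed over donut expectation. Like loops share the anchor width and 1 of 40 span bins. Coordinates are 1-based. The 6 genes and the lists were chosen with earlier results of these data known. All 6 genes are named. Every loop is described where a gene had up to 12, and otherwise those at its start, the 3 longest, the 3 strongest and the 3 with most contacts. The 5 kb limit for gene starts was set after the loops had been seen. Other cell cycle genes were not analysed here. Functions were tested on simulated loops. Alternatives tried were other margins, anchor widths, overlaps, expectations and loop filters.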

Additional observations from a re-analysis of the deposited data

How the results depend on the processing

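No sample could be left out in turn and no paired analysis was possible because the list merges all samples of 1 group. Within 1.5 times of the value reported stayed 28 of 36 alternative counts of loops in a window and 9 of 12 counts of enclosing loops. Of the shares to higher coordinates, 33 of 36 stayed within the exact binomial interval. Those intervals are wide, such as 0 to 84.2% at CCND1 and 9.43 to 99.2% at CDKN1A. A move from 0 to 50% at CCND1 stayed inside, so this count says little about stability. Median ratios ran from 4.68 to 11.2 at CCND1, 3.93 to 7.51 at CCND2, 3.22 to 5.56 at CCND3, 2.87 to 4.31 at CDK6, 3.74 to 5.86 at CDKN1A and 2.26 to 5.28 at CDKN2A. With 2 to 5 loops no 95% interval of a median can be had, so at CCND1, CDKN1A and CDKN2A these ranges say nothing about stability. CDK6 and CDKN2A changed places as the gene with the lowest median. Without the margin, the counts were 1 loop at CCND1 and 1 at CDKN2A, and the share of loops to higher coordinates was 0% at CCND2 and 100% at CDKN2A. With a margin of 50 kb, the counts were 4 loops at CCND1, 6 at CDKN1A and 8 at CDKN2A, the share at CDKN1A was 100%, and the median span at CCND1 was 565 kb. Attached loops then outnumbered the 7 enclosing CDKN2A and the 4 enclosing CDKN1A, the opposite of the order at 20 kb. With 5 kb anchors only, and likewise without single-pixel loops, CCND1 had 1 loop. With every q-value at or below 0.1, CDK6 had 8 loops, and 3 loops enclosed CCND3 and 1 enclosed CDK6. When the whole window had to lie inside the anchors, 0 loops enclosed CCND1. From the lower-left expectation, contact depth at CCND1 was 1.09. The cause of these moves was not tested beyond the fewer or wider loops that each setting admits. The small counts at CCND1, CDKN1A and CDKN2A therefore depend on the margin, whereas those of CCND2 and CCND3 stayed within 1.5 times under every alternative tried. Depth limits single loops: the weakest loops rest on 12 to 15 contacts.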
